A study of Mus musculus with 6 samples.

Results

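The genes examined here are 9 genes used to recognise neural crest cells, their glia and neurons in the lung of the mouse embryo at embryonic day E11.5. They are the crest and glial genes Sox10, Gal, Ret, Gfra1, Ednrb and Erbb3 and the neuronal genes Stmn2, Tubb3 and Nefl, and all 9 were on the array among 8251 genes with a single symbol in the platform annotation. Every probe set (a group of short oligonucleotides designed against 1 transcript) whose only symbol was one of these was taken, which gave 15. Tissue was dissected into 2 regions: a branching region taken from the lungs of both sides, and a non-branching region of main bronchi with a piece of trachea. Each region had 3 samples on 1 array each, named here by region and replicate number. The labels give no strain, genotype or treatment for either region and do not say whether replicates came from separate embryos, so the spread between them may be technical. These genes were chosen by symbol, and selected on the difference between the regions as already seen on these same arrays, so for them the differences are a description and carry no test.

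Neural crest cells leave the dorsal neural tube, and those of the vagal level enter the foregut and follow its outgrowth into the lung buds, where they form the intrinsic neurons and glia of the airways. Sox10 is the transcription factor that crest cells keep as progenitors and as glia and switch off as they become neurons. RET with its co-receptor GFRA1 receives GDNF, EDNRB receives endothelin-3 and ERBB3 receives neuregulins, and these 3 receptor systems guide migration, survival and glial differentiation of crest cells. STMN2, the neuron-enriched beta-tubulin TUBB3 and the light neurofilament protein NEFL belong to the cytoskeleton of neurons and their axons.

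Of the 4 genes with a promoter in the RefSeq table of build GRCm38.p6 (Gal, Gfra1, Ednrb and Tubb3), 3 are shown because they span the pattern described below: Gal and Gfra1 had their higher mean signal in the non-branching region, and Tubb3 did not. Each sequence is the 250 bases before the annotated start, written 5′ to 3′ on the strand of the gene. They lie at chr19:3414545-3414794, minus strand for Gal, at chr19:58455399-58455648, minus strand for Gfra1, and at chr8:123411303-123411552, plus strand for Tubb3.
Gal promoter: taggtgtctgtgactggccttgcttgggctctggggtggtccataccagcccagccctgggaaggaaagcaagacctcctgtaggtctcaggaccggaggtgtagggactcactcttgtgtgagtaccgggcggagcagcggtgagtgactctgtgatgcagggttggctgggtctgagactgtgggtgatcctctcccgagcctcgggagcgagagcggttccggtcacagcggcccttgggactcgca
Gfra1 promoter: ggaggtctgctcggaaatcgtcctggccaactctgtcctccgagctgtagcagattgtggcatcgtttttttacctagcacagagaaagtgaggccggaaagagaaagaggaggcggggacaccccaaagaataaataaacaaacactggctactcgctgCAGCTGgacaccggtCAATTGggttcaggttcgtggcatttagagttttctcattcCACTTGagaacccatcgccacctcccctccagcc
Tubb3 promoter: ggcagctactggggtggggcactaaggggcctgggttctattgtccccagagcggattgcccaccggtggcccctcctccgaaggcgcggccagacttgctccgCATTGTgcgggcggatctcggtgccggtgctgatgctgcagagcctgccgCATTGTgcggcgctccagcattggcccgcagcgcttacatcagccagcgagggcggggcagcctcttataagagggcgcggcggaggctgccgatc
Capitals mark matches on either strand to the E-box CANNTG, the core letters read by bHLH factors, and to ACAAAG or ACAATG, cores read by SOX factors. The searched letters did not overlap one another in these windows. The Gal window held none of them, Gfra1 held 3 E-boxes, which began 90, 75 and 34 bases before the start, and Tubb3 held ACAATG on the other strand at 146 and 96 bases before it. Over 32851 promoter windows of this length, 66.2% held CANNTG, 16.5% ACAAAG and 10.7% ACAATG. These are matches of letters and not binding sites.

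The signal of each probe set is the deposited linear value, and 147 was taken as the background level: 95% of the 114 readings of 19 controls that match no mouse transcript (bacterial and yeast sequences) fell under it. By the brightest probe set of each gene, Sox10, Gal, Erbb3, Stmn2 and Tubb3 were above background on all 6 arrays. Ret and Nefl were at or below it on every array, and Gfra1 and Ednrb lay around it. Of 45 other neuronal genes on the array 11 were above background on all 6 arrays, among them Uchl1, an abundant deubiquitinase of neurons (822 to 1390), and Ncam1, while 17 did not exceed it on any, among them the neuronal RNA-binding protein genes Elavl3 and Elavl4 and the synaptic genes Snap25 and Syt1. Of 15 other glial and Schwann cell genes 4 were above background on all arrays (Pmp22, Mbp, Dhh and Mag), and 4 on none, among them S100b and Fabp7, a gene of glial precursors. The brightest Mag probe set has a name that marks a design picked under relaxed rules. The other Mag probe set was below background on every array (20.7 to 70.9), as were the second ones of Pmp22 and Mbp. The second probe sets of the neuronal genes Stmn3, Sncg, Rab3a and Chga, counted above by their brightest ones, were also below it on every array. The dimmer probe sets of Ncam1 were below it on some arrays. For Stmn3 and Sncg the brightest probe set is of the design for families of similar sequences. A signal here is a sum over all cells of a dissected piece, so fewer cells of a type and less RNA per cell cannot be told apart.

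**Figure D1:**
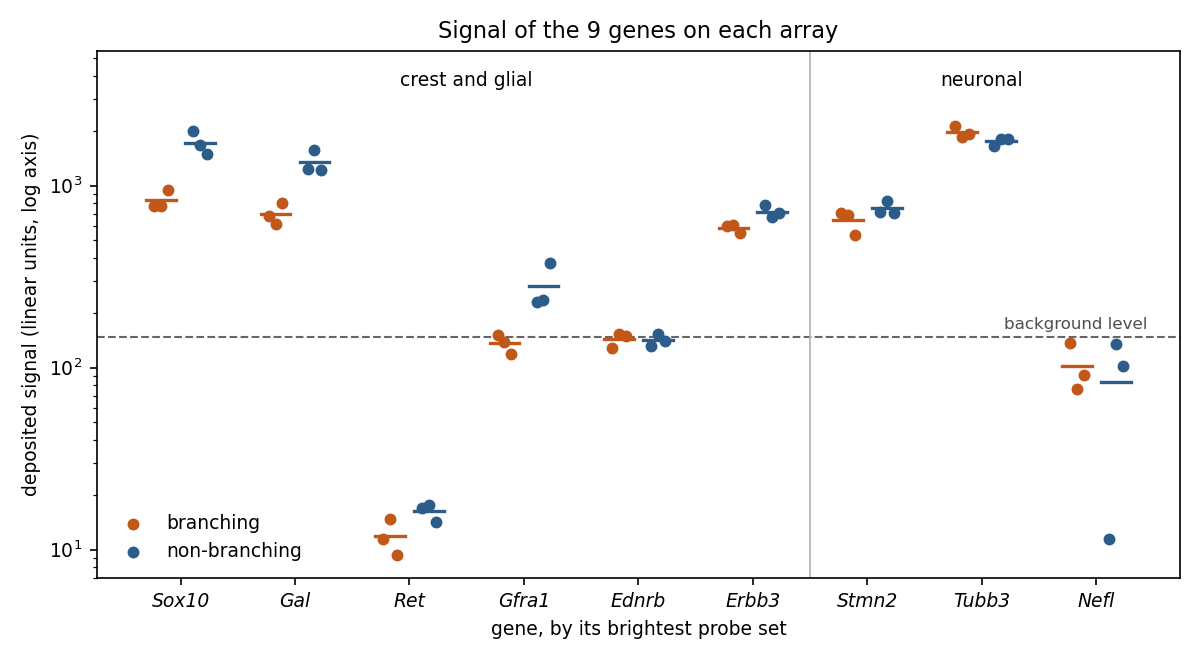
Signal of each gene by its brightest probe set (log axis), with a point per array, a line at the mean of the 3 arrays and a dashed line at the background level of 147. The branching points of Sox10, Gal, Gfra1 and Erbb3 lie below all their non-branching points, those of Tubb3 lie above, and the regions overlap for the other 4 genes.

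Sox10 and Gal showed about the same shift, with close to 2 times more signal in the non-branching region. Sox10 (Entrez gene 20665) had signals of 771, 769.7 and 945 on branching replicates 1 to 3 and of 1991, 1672 and 1489 on the non-branching replicates. The regions did not overlap, and the lowest non-branching array was above the highest branching array by 544. The mean was 829 ± 101 (SD, n = 3) for the branching and 1718 ± 254 for the non-branching arrays, a log2 difference, branching minus non-branching, of -1.05 ± 0.15 (SE of the fit), or 2.07-fold lower. The second Sox10 probe set was dim, with signals of 178, 46.6 and 60.0 in branching and 348, 392 and 84.4 in non-branching. It had the same sign (-1.51 ± 0.71), but its regions overlapped and its error was several times larger.

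Gal (Entrez gene 14419) encodes the neuropeptide galanin, which is made by subsets of peripheral and enteric neurons and in several other embryonic tissues. Its signals were 677, 617 and 805 in branching and 1235, 1571 and 1221 in non-branching, again with no overlap. The means were 699.7 ± 95.7 and 1343 ± 198 (SD, n = 3), a log2 difference of -0.94 ± 0.16, or 1.92-fold lower in branching. The other Gal probe set, whose name marks a design picked under relaxed rules, did not show this: it read 198, 186 and 134 in branching against 127, 138 and 117 in non-branching (0.42 ± 0.37), and all 3 non-branching values were below background. Within the branching region both genes were highest on replicate 3 and lowest on replicate 2, while within the non-branching region Sox10 was highest on replicate 1 and Gal on replicate 2.

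Of the receptor genes, Gfra1 (Entrez gene 14585), the co-receptor for GDNF, had signals of 151, 138 and 119 in branching and 231, 234 and 374 in non-branching. The non-branching arrays were all higher, by 79.3 between the nearest values, but only 1 branching array exceeded background, so the log2 difference of -1.01 ± 0.34 sets a measured level against one near background. Ret (Entrez gene 19713), the kinase that pairs with GFRA1, read 9.3 to 17.5 over the 6 arrays, was too dim to be tested, and gives no information on either region. Ednrb (Entrez gene 13618), the endothelin receptor of crest cells, read 128, 154 and 149 in branching and 132, 154 and 139.8 in non-branching, values around background that overlapped throughout (0.02 ± 0.36).

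Erbb3 (Entrez gene 13867), a receptor for neuregulins in crest and Schwann cell precursors that epithelia also express, gave 603, 609.8 and 549 in branching and 783, 673 and 703 in non-branching. These sets did not overlap, and the shift was small: means of 587 ± 33.5 and 719 ± 57.0 (SD, n = 3), a log2 difference of -0.29 ± 0.16, or 1.22-fold lower. The second Erbb3 probe set was below background on every array, at 21.7 to 58.6.

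By their brightest probe sets, Stmn2 and Tubb3 differed less between the regions than Sox10 and Gal, and Nefl was too dim to read. The shift of Stmn2 was close to that of Erbb3 (-0.23 against -0.29). Stmn2 (Entrez gene 20257), a tubulin-binding protein of growing axons, had signals of 711, 689.5 and 532 in branching and 719.8, 823.5 and 705 in non-branching. The values overlapped, with a log2 difference of -0.23 ± 0.17 that is 1.17-fold lower in branching. The brightest Stmn2 probe set has a name that marks a less specific design; the other 2 had the same sign (-0.72 ± 0.61 and -0.72 ± 0.76) with values on both sides of background and overlapping regions.

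Tubb3 (Entrez gene 22152) read 2115, 1855 and 1919 in branching and 1647, 1806 and 1811 in non-branching, slightly higher in branching with no overlap (0.16 ± 0.11). Its second probe set had the opposite sign (-0.47 ± 0.37), with 163, 194 and 163.5 in branching and 258, 155 and 343.5 in non-branching. Both Tubb3 probe sets are of the design for families of similar sequences, so other beta-tubulin transcripts may add to them. Nefl (Entrez gene 18039) stayed below background, at 137, 76.5 and 91.3 in branching and 11.4, 135 and 102 in non-branching, and its log2 difference of 0.71 ± 0.82 sets values below background against each other. It was 0.04 with a floor of 64 and -0.25 without non-branching replicate 1.

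**Figure D2:**
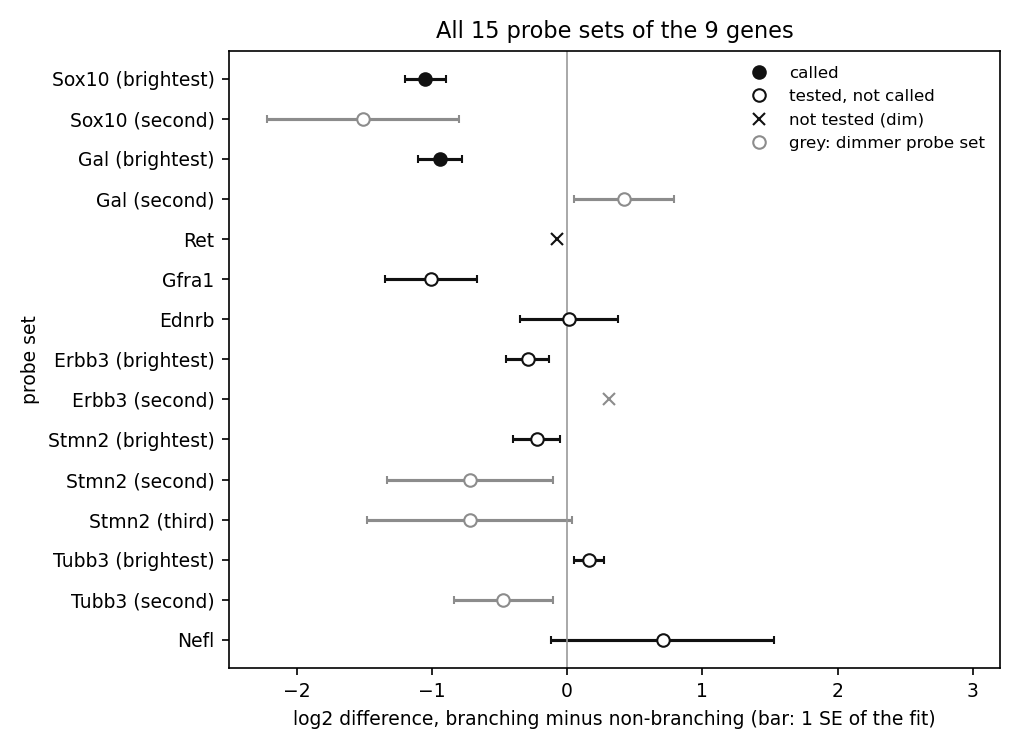
Log2 difference, branching minus non-branching, of each of the 15 probe sets, with 1 SE of the fit as a bar; crosses are probe sets too dim to be tested, filled points were called and grey marks the dimmer probe sets of a gene. The brightest probe sets of Sox10 and Gal are the filled ones, at -1.05 and -0.94, and the second probe sets of Gal, Erbb3 and Tubb3 lie on the other side of 0 from the brightest ones.

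In the fit over the whole table (limma, call at a Benjamini-Hochberg adjusted p under 0.05), Sox10 and Gal were called lower and none of the 9 genes higher. Of the genes tested, 1.32% were called lower in branching and 1% higher. By the brightest probe set 8 of the 9 genes were tested, since Ret did not pass the filter on dim probe sets. The branching arrays were all below the non-branching ones for 4 genes (Sox10, Gal, Gfra1 and Erbb3) and all above for 1 (Tubb3), against 11.7% and 10.2% of all genes tested. Because the choice of genes used this contrast, nothing is read from these counts. Gal was called in 1 of 6 fits that left out an array (without branching replicate 3), whereas Sox10 was called in all 6. Neither was called when the fit took no trend of variance with signal. These refits reuse the arrays on which the genes were chosen, so they show only how a call depends on the fit.

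Crest and glial genes were set against neuronal genes within each array, as the difference of their mean log2 signals. Its absolute value depends on the probes and only its change between arrays can be read. Because the genes were chosen on this contrast, a separation of the regions in it was favoured in advance. The values below, also those without Gal, are therefore a description and not a check. With the 5 genes above background on all arrays (Sox10, Gal and Erbb3 against Stmn2 and Tubb3) it was -0.85, -0.77 and -0.44 on branching replicates 1 to 3, and 0.19, -0.01 and -0.06 on non-branching replicates 1 to 3. The regions did not overlap, and the mean was 0.73 lower in branching (-0.69 ± 0.22 against 0.04 ± 0.13, SD, n = 3). With all 9 genes it was -1.46, -1.10 and -1.03 in branching and 0.25, -0.86 and -0.66 in non-branching, a mean difference of -0.77. There the signal of Nefl was under the floor of 16 on non-branching replicate 1, and without that array the mean difference was -0.43. Since neurons also make galanin, Gal was in addition left out or counted as neuronal. Over the genes above background the mean difference was then -0.64 without Gal and -0.34 with Gal as neuronal, and the regions did not overlap in either case. Over all 9 genes it was -0.69 and -0.41, and with Gal as neuronal the regions overlapped.

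The 2 groups contributed unequally. The mean log2 signal of the 6 crest and glial genes was 7.76 ± 0.03 in branching and 8.32 ± 0.01 in non-branching, and that of the 3 neuronal genes was 8.96 ± 0.21 and 8.75 ± 0.60, with overlapping arrays and the lowest of them set by Nefl. The crest and glial mean includes Ret, at or near the floor of 16 on every array, and Ednrb, which did not differ. Its small SD therefore does not show that all 6 genes shifted. The ratio of Sox10 to Stmn2 signal was 1.09, 1.12 and 1.78 on the branching arrays and 2.77, 2.03 and 2.11 on the non-branching arrays, so Sox10 differed more between the regions than Stmn2 on these arrays. Branching replicate 3, which has the highest Sox10 and the lowest Stmn2 signal of its region, lies nearest to the non-branching arrays.

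**Figure D3:**
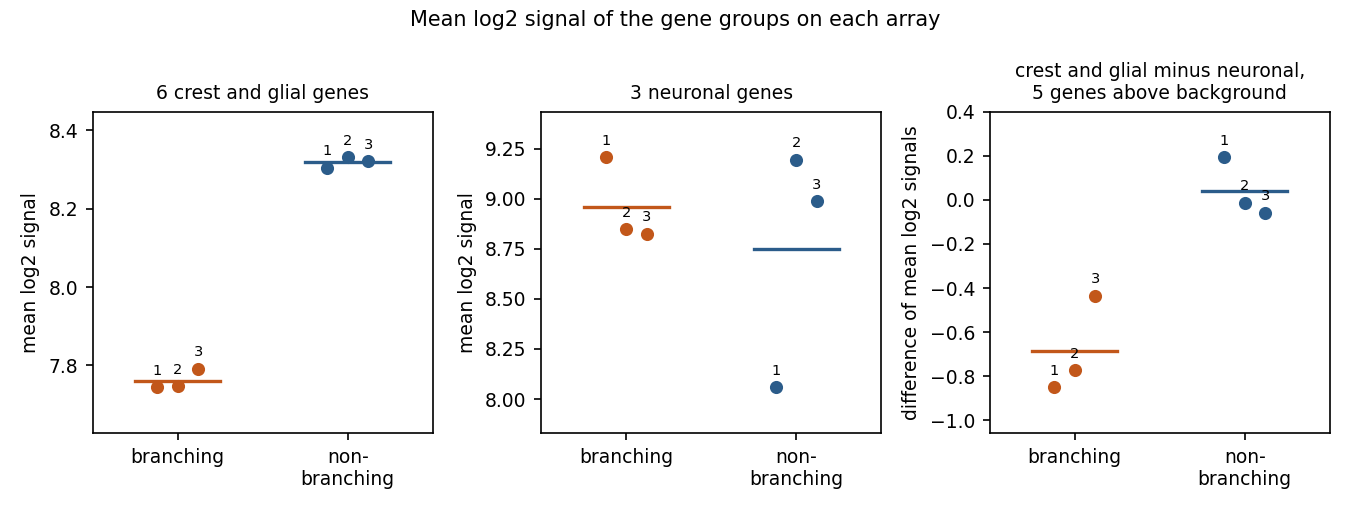
Mean log2 signal on each array (points numbered by replicate, line at the mean of 3) of the 6 crest and glial genes, of the 3 neuronal genes, and of the former minus the latter for the 5 genes above background on all arrays. The crest and glial means fall in separate ranges, 7.74 to 7.79 in branching and 8.30 to 8.33 in non-branching, while the neuronal means overlap.

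Among the ligands and other receptors of the same pathways no gene was called. Of 15 on the array 12 were tested, with 0 calls in either direction (limma), while 1 was lower and 3 were higher at an unadjusted p under 0.05. Of all genes tested, 8.43% were lower and 7.16% higher at that unadjusted threshold, and the counts at it for the lists below are to be read against these shares. The median log2 difference was -0.45, against -0.01 for all genes tested. Gdnf, the ligand of GFRA1 and RET, had signals of 152, 164 and 205 in branching and 326, 277 and 371.5 in non-branching, without overlap (-0.91 ± 0.29, limma adjusted p = 0.178). Its other probe set was below background. The related ligand genes Artn (392 ± 70.8 in branching, 221 ± 65.4 in non-branching, adjusted p = 0.243) and Pspn (365 ± 66.3 and 188 ± 22.9, adjusted p = 0.141) had the opposite sign. Nrtn overlapped between the regions (565 ± 154 and 725 ± 189, adjusted p = 0.588).

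Among the co-receptor genes of that family, Gfra2 averaged 283 ± 90.7 on the branching and 418 ± 46.2 on the non-branching arrays (SD, n = 3, limma adjusted p = 0.382), and Gfra3 means of 276 ± 61.1 and 307 ± 131 (adjusted p = 0.962). In the endothelin system, Edn3, the ligand of EDNRB in crest cells, was below background on all branching arrays and above it on 2 non-branching arrays (117 ± 28.5 and 190.0 ± 66.2, adjusted p = 0.520). Edn1 overlapped (288 ± 186 and 330.0 ± 71.6, adjusted p = 0.758), and Edn2 was below background. Ece1, the enzyme that activates endothelins, had nearly equal means of 711 ± 89.7 and 717 ± 97.9 (adjusted p = 0.987).

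Of the neuregulin and EGF receptor genes, Erbb4 was below background on every array, as was the ligand gene Nrg3, and Egfr had means of 213 ± 120 and 301 ± 65.1 (SD, n = 3, limma adjusted p = 0.574). The galanin receptor genes went opposite ways without being called. Galr1 was higher on every branching array (332 ± 109 against 175 ± 12.9, adjusted p = 0.274), and Galr2 was below background on every branching array and above it on every non-branching array (116 ± 21.1 against 183 ± 9.72, adjusted p = 0.449).

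Among other genes of the crest and of glia 1 was called, with the opposite sign to Sox10. Of 18 neural crest regulators on the array 12 were tested, and 1 rose in branching, none fell and 11 were not called (median log2 difference -0.12; 2 lower and 1 higher at an unadjusted p under 0.05). The gene that rose was Snai2, a zinc finger repressor of crest and of mesenchymal cells generally. Its signals were 3605, 4068 and 3946 in branching and 1881, 2035 and 1933 in non-branching (0.99 ± 0.10, limma adjusted p = 0.00142). The difference was negative for 9 of the 12 regulators tested and positive for 3. Cdh6, singled out after its values were seen, had the same sign as Sox10 without being called. Its signals were 205.3, 171.5 and 184.5 in branching and 372.4, 482.5 and 372.3 in non-branching, without overlap (-1.12 ± 0.26, limma adjusted p = 0.0665). Of 15 glial and Schwann cell genes 12 were tested and none was called (median -0.22; 1 lower and none higher at an unadjusted p under 0.05). Gfap, an intermediate filament gene of glia, was below background on all branching arrays (83.5 ± 23.5) and above it on all non-branching arrays (267 ± 41.8), with a limma adjusted p = 0.0637. Its brightest probe set has a less specific design, and the other one was below background on all arrays. Mal, a proteolipid gene of myelinating glia and epithelia, had 94.8 ± 23.0 and 158 ± 22.9 (adjusted p = 0.457).

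Of the neuronal genes besides Stmn2, Tubb3 and Nefl, 27 were tested and none was called (limma), with 7 lower and 1 higher at an unadjusted p under 0.05 and a median of -0.31. The smallest p-values had opposite signs. Dcx, which encodes the microtubule-binding protein of migrating neurons, read 476, 538 and 414 in branching and 118, 293 and 137 in non-branching (1.50 ± 0.36, adjusted p = 0.0777). At an adjusted p under 0.05 Dcx was called only in the fit without non-branching replicate 2, its highest non-branching array (limma adjusted p = 0.0280). Ncam1, an adhesion molecule of neurons, crest and muscle, read 532, 670.5 and 599 in branching and 979.8, 960.5 and 837 in non-branching (-0.63 ± 0.16, adjusted p = 0.0910). Chga, which encodes the secretory granule protein chromogranin A and was singled out after its values were seen, was called lower only in the fit without branching replicate 2 (adjusted p = 0.0378, against 0.271 with all arrays). Over these 4 lists 63 genes were tested, and the branching arrays were all below the non-branching ones for 12 of them (19.0%, against 11.7% of all genes) and all above for 6 (9.52%, against 10.2%). The difference was negative for 43 and positive for 20, against 3464 and 3334 of all 6798 genes tested. By list, the median was -0.12 for neural crest regulators, -0.22 for glial and Schwann cell genes and -0.31 for neuronal genes. The larger decrease of crest and glial than of neuronal genes among the 9 was thus not seen in these medians.

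Markers of other tissues also differed between the regions on the same arrays. Of 8 smooth muscle genes tested 5 fell in branching (median -0.86), and their summed signal was 7211 to 7746 in branching and 12585 to 13677 in non-branching. Of 8 cardiac muscle genes 2 fell, Actc1 and Tnni1 (median -0.61, summed signal 3044 to 3213 against 5006 to 5841). The brightest probe sets of Actc1 and of the smooth muscle gene Actg2 are of the design for families of similar sequences. Other actin transcripts may therefore add to them. Of 10 cardiac genes on the array, 5 were above background on all arrays, and 2 (Myh6 and Myl2) were below it on all arrays. Of 10 endothelial genes 1 fell (median -0.31, summed signal 4739 to 5174 against 5650 to 5957). Of 7 red blood cell genes 3 rose (median 0.45, summed signal 137150 to 152169 against 88582 to 95933). None of 12 epithelial genes was called (median 0.12, 1 lower and 2 higher at an unadjusted p under 0.05, summed signal 6842 to 7669 against 5982 to 6576). None of 8 central nervous system progenitor genes was called (median -0.21, none lower and 1 higher at an unadjusted p under 0.05), with overlapping sums of 3209 to 3858 and 3327 to 3766, and 5 of 11 on the array were below background throughout. The part of this tissue makeup in the Sox10 and Gal difference was not tested.

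**Figure D4:**
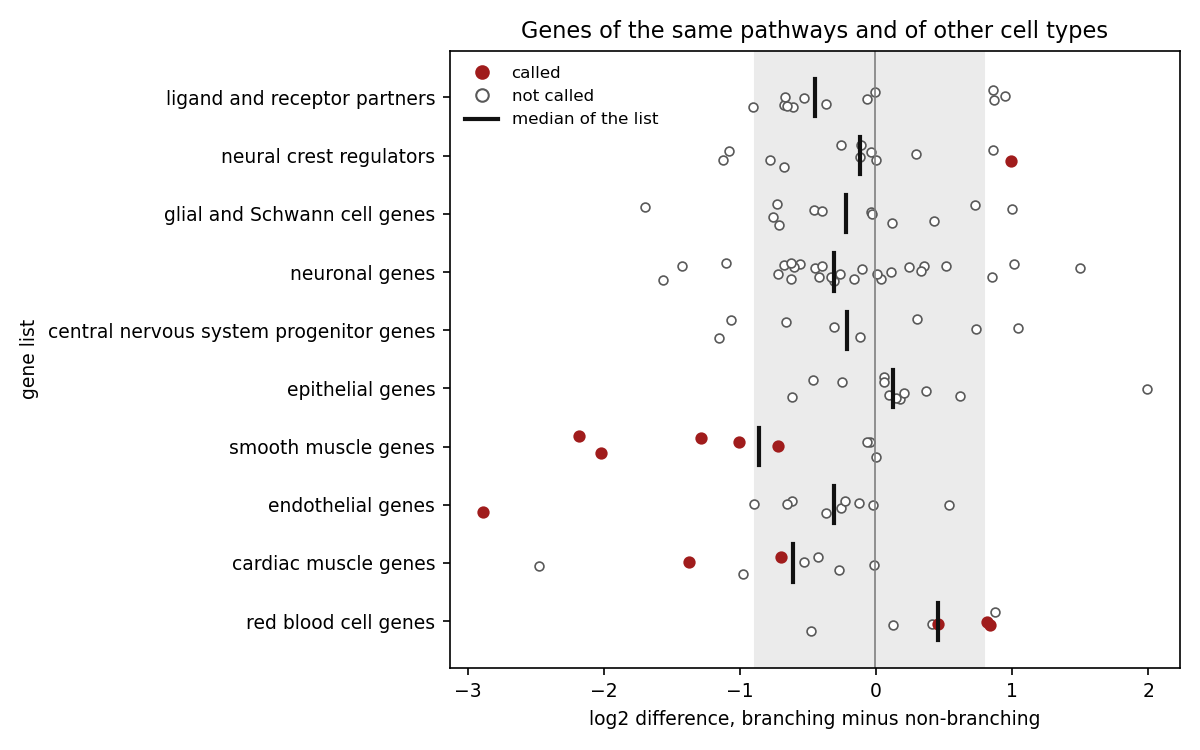
Log2 difference, branching minus non-branching, of each tested gene (by its brightest probe set) in lists of the same pathways and of other tissues; filled points were called, vertical bars are list medians, the thin line is the median of all genes tested and the grey band holds their central 90%. The 4 neural lists have medians between -0.45 and -0.12 with 1 called gene, Snai2, while 5 smooth muscle genes were called lower.

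The genes whose log2 signal followed that of Sox10 most closely over the 6 arrays were Mtarc2 (Pearson r = 0.990), Prrx1 (0.989), Crabp1 (0.987), Col1a1 (0.985) and Pkdcc (0.984). None of these 5 genes was assigned to a cell type, and whether any of them is expressed in crest cells was not tested. Crabp1 had the largest log2 difference of the 5 (-2.20). Prrx1 and Crabp1 averaged 96.8 and 120 in branching, under the background level, and 202 and 554 in non-branching. The 6 points fall into the 2 regions, and 67 of 6797 genes reached an r above 0.95, so such a match mostly says that a gene was lower in branching. The genes nearest to Stmn2 were Mad2l1bp (0.993), Angptl4 (0.985), Cds2 (0.972), Fggy (0.971) and Cfp (0.968), with 11 genes above 0.95, and none of these 5 was called between the regions.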

How the data were processed

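Total RNA from 6 samples, 3 per region, was measured on 6 one-colour oligonucleotide arrays. The deposited values are linear intensity values, 1 per probe set and array. How the authors computed them is not stated in the labels. The mean of each array without its lowest and highest 2% of values was 500.3, so the arrays had been scaled before deposit, as read from the values. No detection calls were used, and precision is limited by having 3 arrays a region.

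Of 12488 probe sets 66 controls were left out. The platform annotation gave 10833 of the rest a single symbol, 396 several and 1193 none, and 10817 matched a RefSeq gene by Entrez identifier, with no symbol changed. A gene was represented by its probe set with the highest mean log2 signal. Values under 16 were set to 16 and log2 was taken. After the dimmest 25% of probe sets were dropped, limma 3.58.1 (R 4.3.3; lmFit, eBayes with a variance trend) compared the regions for 9316, two-sided, with Benjamini-Hochberg adjustment over all of them. The fit was tested on simulated data with 200 changed probe sets. The array medians of the signal were 212 to 229.

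The 9 genes and all lists were chosen with earlier results of these data known. Named genes were the 9, every ligand and receptor partner on the array, in each other neural list up to 4 called genes or the 2 with the smallest p, and the 5 genes most correlated with Sox10 and with Stmn2. Chga, Cdh6 and the genes named as above or below background were added after their values were seen. Alternatives tried were quantile normalization, median centring, a block for the replicate number, no filter or a filter on the dimmer 50%, a floor of 64, adding 16 instead of a floor, no variance trend, an adjusted p under 0.10, the mean of a gene's probe sets, and leaving out each array. Leaving out Gal or counting it as neuronal was chosen after seeing the data.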

Additional observations from a re-analysis of the deposited data

How the results depend on the processing

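The 189 probe sets called (105 lower and 84 higher in branching) became 114 with the replicate block (44 of them higher), 100 without the filter on dim probe sets (62 lower, 38 higher), 22 without the variance trend (17 and 5) and 359 at an adjusted p under 0.10 (195 and 164). Leaving out an array gave 61 to 150 calls, 38 to 98 lower and 16 to 69 higher. Of the 9 genes, 2 were called lower, and 1 with the replicate block or without the filter, 0 without the trend, and 1 to 2 when an array was left out; none was called higher in any alternative. Gal lost its call with the replicate block, without the filter, without the trend and in 5 of 6 omissions. The replicate numbers do not come from a stated shared source, and deviations of same-numbered arrays correlated at -0.01 to 0.01, so the block was not preferred. Of the 63 other neural genes tested, 0 were called lower; that count was 1 with the dimmer 50% left out (Cdh6) and with a floor of 64 (Gfap), 3 at an adjusted p under 0.10, and 0 to 1 over the omissions. The count called higher was 1 and became 0 without the trend, 2 at an adjusted p under 0.10, and 1 to 2 over the omissions. Crest and glial minus neuronal level over all 9 genes was negative in 13 of 13 alternatives, from -0.99 to -0.41. The genes were chosen on this contrast, so that sign was favoured in advance and its persistence is not a check. Median centring cannot change a difference within an array, and the settings that moved or dropped Gal were chosen after seeing the data. The level difference was -0.43 both without non-branching replicate 1 and with the mean of all probe sets of a gene. With Gal counted as neuronal it was -0.41. The mean of all probe sets gave -1.28 for Sox10, -0.26 for Gal and -0.55 for Stmn2, and turned the sign of Erbb3 (0.01) and Tubb3 (-0.16). Nefl turned sign without non-branching replicate 1 (-0.25), and Ednrb, near 0 throughout, in 3 of 6 omissions. Sox10 and Gal did not change sign. Values near the floor for Ret, below background for Nefl, and around background for Ednrb and the branching arrays of Gfra1 limit what can be read.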
